A study of Mus musculus with 6 samples.

Results

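The 9 ion channel genes described here are known from microglial surveillance and activation, and were followed in microglia of P15 mice. They are the potassium channel genes Kcnk13, Kcnk6, Kcnj2, Kcna3 and Kcnn4, the proton channel gene Hvcn1, and the transient receptor potential (TRP) channel genes Trpv2, Trpm2 and Trpm7. They were chosen by name and matched to the deposited table by Ensembl identifier, which gave 9 of 9 genes among the 26789 in the table. Microglia came from the rostral nucleus of the solitary tract (NST), the first brain station of taste input, with 3 libraries of control mice and 3 of E3–E12 diet mice. Dams of the E3–E12 diet group were fed a low-sodium diet from E3 to E12 and then standard chow, whereas control dams were given standard chow throughout. The E3–E12 diet dams also drank distilled water in that period and tap water later, so diet and water changed together. Each library pooled the NST of littermates of both sexes from 1 litter, and no transgene or genetic change is named for either group. The study's methods describe positive selection with magnetic beads against CD11b, while the labels of the series describe laser microdissection, so the isolation cannot be settled here.

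Microglia move and sense their surroundings with few ion channels open at rest. Potassium leaving through background and inwardly rectifying channels holds the membrane potential negative, which keeps processes extended and sets the driving force for calcium entry. Voltage-gated and calcium-activated potassium channels are added when microglia are activated, the proton channel removes acid and charge during the oxidative burst, and the TRP channels admit calcium and other cations in response to ligands, oxidants or membrane lipids. In these libraries 7 of the 9 genes were readily measured, Kcna3 was near the limit of detection and Kcnn4 was seen in 1 library. None of the 7 that could be tested passed the test between diets, and Hvcn1 and Trpv2 varied between libraries with the markers of microglia.

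The promoters of the channels are shown to place the genes, as the expression data do not measure them. RefSeq windows on GRCm38.p6 were found for 7 of 9 members, and Kcnk6 and Hvcn1 had no entry. Each sequence below is the 250 bases before the transcript start, 5′ to 3′ on the strand of the gene. Trpm7 (chr2:126876262-126876511, minus strand) and Kcnk13 (chr12:99964249-99964498, plus strand) are shown for their contrast in CpG dinucleotides, which are in capitals. Trpv2 (chr11:62574236-62574485, plus strand) is shown for the 1 match among the members to GAGGAAGT, a binding motif of the myeloid transcription factor PU.1, which is in capitals.
Trpm7: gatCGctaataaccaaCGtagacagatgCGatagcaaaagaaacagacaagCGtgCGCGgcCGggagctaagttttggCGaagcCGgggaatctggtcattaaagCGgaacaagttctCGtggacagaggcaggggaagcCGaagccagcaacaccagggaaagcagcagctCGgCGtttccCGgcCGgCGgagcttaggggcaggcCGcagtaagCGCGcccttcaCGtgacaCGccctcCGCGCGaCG
Kcnk13: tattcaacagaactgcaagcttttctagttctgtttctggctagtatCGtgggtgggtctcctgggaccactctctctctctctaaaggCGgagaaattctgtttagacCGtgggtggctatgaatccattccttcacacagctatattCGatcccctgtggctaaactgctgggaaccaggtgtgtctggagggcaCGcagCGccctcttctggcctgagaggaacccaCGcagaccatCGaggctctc
Trpv2: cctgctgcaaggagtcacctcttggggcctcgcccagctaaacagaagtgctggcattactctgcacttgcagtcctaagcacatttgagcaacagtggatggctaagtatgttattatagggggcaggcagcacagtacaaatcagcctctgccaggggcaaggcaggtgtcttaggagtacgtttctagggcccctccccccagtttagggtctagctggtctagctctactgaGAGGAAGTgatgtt
The Trpm7 window held 26 CpG dinucleotides, more than 90.4% of the 32851 windows in the table. Kcnk13 held 8 and this Trpv2 window 2, against a median of 6 over all windows. Kcna3, which was barely detected, had the most CpG of the members at 31, and Kcnn4, which was detected least, had 6. GAGGAAGT was searched on both strands and lay 14 bases before the first Trpv2 start. It was also in the second of 3 Trpv2 windows, which overlaps the first, and in none of the windows of Kcnk13, Kcnj2, Kcna3, Kcnn4, Trpm2 and Trpm7. Of all windows, 2.44% held it. A match in a window is not evidence of binding.

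The libraries differed in how much microglial RNA they held and in depth. The low values of each library clustered near whole multiples of a step of 0.546 to 1.97 normalized counts, taken here as the approximate worth of 1 read. That step also varied between genes, so numbers of reads are approximate, between 8.41 and 21.8 in units of 1e6 per library. All 12 microglia markers were above 0 in every library. Their summed level was lowest in control replicate 1 and E3–E12 diet replicate 1, at 97198 and 99061 normalized counts, and ranged from 235288 to 513232 in the other 4 libraries. Csf1r, the receptor for the main microglial growth factor, alone had between 48984 and 280071 normalized counts, so the defining markers of the labelled cell type were present. Control replicate 2 stood apart, with 10640 genes listed at 0 against 3459 to 7135 in the other libraries, and with 219 of 7287 abundant genes more than 10 times below their lowest value elsewhere (3.01%), against 0 to 6 such genes in any other library.
Markers of other cells had lower sums than the microglia markers in every library. Oligodendrocyte markers (7 of 7 in the table) had the highest of these sums in control replicate 1, at 41669 normalized counts, and ranged from 4550 to 41669 in controls and from 4870 to 21403 under the diet, with Mag listed at 0 in 4 libraries. Mural cell markers (6 of 6) ranged from 1998 to 15558 in controls and from 6963 to 15315 under the diet, and neuron markers (7 of 7) from 232 to 1424 and from 812 to 1823. Neutrophil and erythroid markers (10 of 10) ranged from 608 to 3018 in controls and from 525 to 677 under the diet. Astrocyte markers (7 of 7 in the table) summed to 1738 to 9132 normalized counts in controls and 4723 to 9725 in E3–E12 diet mice, and endothelial markers (8 of 8) to 4758 to 13488 and 8589 to 14487. Both sums were lowest in control replicate 2, where the astrocyte genes Gfap and Aldh1l1 and the endothelial gene Ly6c1 were listed at 0. Several other genes of these lists were also lowest there, among them Vwf (26.3), Tek (1.70), Flt1 (95.4) and Slc1a2 (211), but some were not. The endothelial genes Pecam1 and Cldn5 had their highest values in that library, at 3154 and 1207, and the astrocyte gene Slc1a3 had 1420. The log2 fold change between diets was above 0 for 7 of 7 astrocyte markers (median 0.93) and below 0 for 12 of 12 microglia markers (median -0.28), none of which passed the test described below. Choroid plexus markers (6 of 6) ran from 555 to 18810 in controls and from 52.4 to 40209 in E3–E12 diet mice, and border-associated macrophage markers (5 of 5) from 4311 to 16287 and 4269 to 7226. Lymphocyte markers (7 of 7), of interest because Kcna3, Kcnn4 and Hvcn1 are also lymphocyte channels, had sums between 265 and 2090 in controls and between 377 and 785 under the diet. Of these 4 passed the filter, with 3 log2 fold changes above 0 and 1 below (median 1.37), none of which passed the test. The T cell gene Cd3g had 20.1, 7.94 and 8.09 normalized counts in control replicates 1 to 3, against 66.9, 300.1 and 13.3 under the diet, and Cd3e had 0, 0 and 3.79, against 26.0, 38.1 and 0.944. The more abundant Cd3d was the 1 below, with 284, 2021 and 135 in controls, against 639, 292 and 287 under the diet. Cd79b had group means of 63.4 in controls and 62.7 under the diet, so the lymphocyte genes gave no common direction. The part of these cells in the channel values was not tested, and in bulk libraries fewer cells of a type and less RNA per cell cannot be told apart.

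To compare levels between genes, normalized counts were divided by the length of the merged exons of each gene in kb. Kcnk6 had the highest level per kb of the members, with a mean of 404 ± 141 (SD over 6 libraries) normalized counts per kb, followed by Hvcn1 at 334 ± 161, Trpm7 at 187 ± 46.8, Kcnj2 at 144 ± 33.5 and Trpv2 at 134 ± 74.1. Trpm2 and Kcnk13 were lower, at 60.2 ± 26.0 and 57.7 ± 27.5, and Kcna3 and Kcnn4 were at 4.03 ± 3.35 and 0.279 ± 0.684. Kcnk6 lay above 93.5% and Kcnk13 above 58.1% of the 17869 genes that passed the filter and had a length. Only the steps from Trpv2 to Trpm2 and from Kcnk13 to Kcna3 had the same order in all 6 libraries. Kcnk6 was above Hvcn1 in 5 libraries, Hvcn1 above Trpm7 in 4, Trpm7 above Kcnj2 in 5 and Kcna3 above Kcnn4 in 5, while Kcnj2 against Trpv2 and Trpm2 against Kcnk13 were higher in 3 of 6 each. The differences between these neighbours were at most about as large as their own spread, for example 69.2 ± 63.0 per kb for Kcnk6 over Hvcn1 and 148 ± 161 for Hvcn1 over Trpm7.

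**Figure D1:**
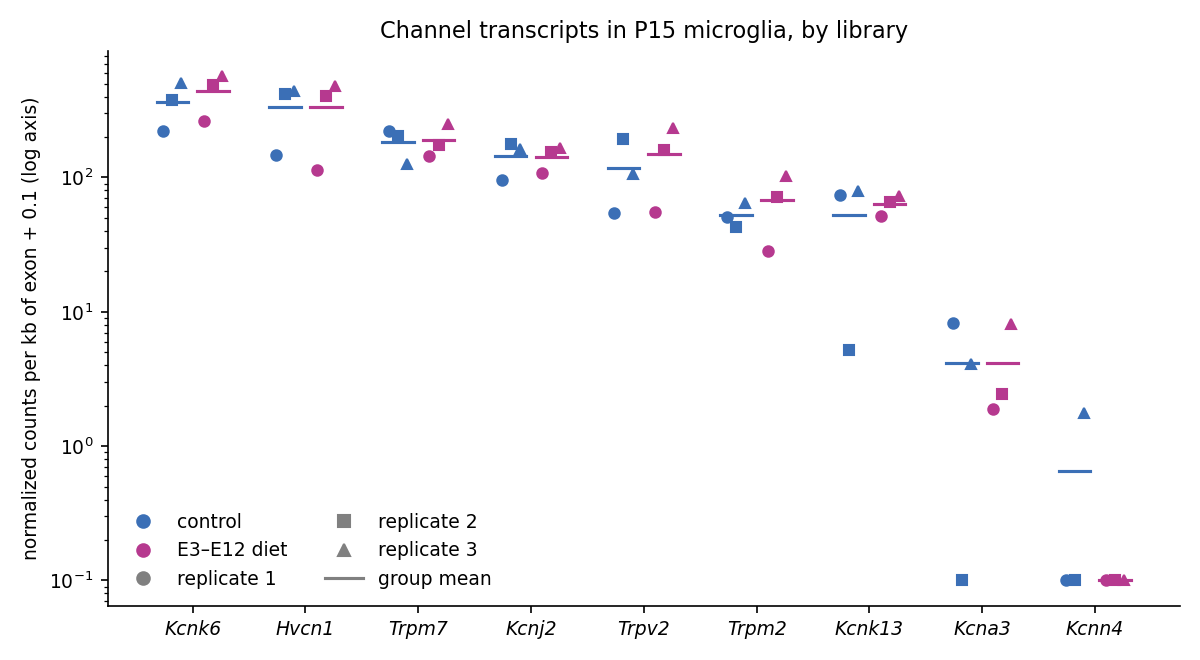
Level of each channel transcript in normalized counts per kb of merged exon, plus 0.1, on a log axis. Points are single libraries (blue, control; magenta, E3–E12 diet; shapes give the replicate number) and bars are group means of 3 libraries. Kcnk6 is highest and Kcnn4 lowest, control replicate 2 lies far below the other libraries for Kcnk13, and the points of both groups overlap for every gene.

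The diet comparison asked whether microglia of E3–E12 diet mice differ in these channels. Genes averaging 10 or more normalized counts were compared on the log2(normalized count + 1) scale by a two-sided test in limma, and p-values were adjusted by Benjamini-Hochberg over all 18007 genes tested. All log2 fold changes are E3–E12 diet minus control, and changes of low genes are understated on this scale. Of the 9 channels, 7 passed the filter and 0 passed the adjusted threshold of 0.1, as did 0 of all genes (0% of those tested, smallest adjusted p from limma 0.225). None of the 7 had an unadjusted p under 0.05 (smallest 0.408, for Kcnk13), against 1.82% of all genes, or 327, and none had groups that did not overlap, against 5.9% of all genes. The mean log2 level was higher under the diet for 5 members and lower for 2. Their median log2 fold change was 0.19, beside 0.087 over all genes tested. Their median standard error was 0.68. By DESeq2 at the same threshold, the study lists genes higher and lower under the diet, among them Mark2 and Tecr but none of the 9 channels. Those lists were curated by function and are not stated to be complete. Absence from them thus does not show that a channel was not called. The DESeq2 test was not repeated on the deposited normalized counts. Mark2 and Tecr had a limma adjusted p of 0.999 here, so the absence of calls holds for this test and may differ by method.

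**Figure D2:**
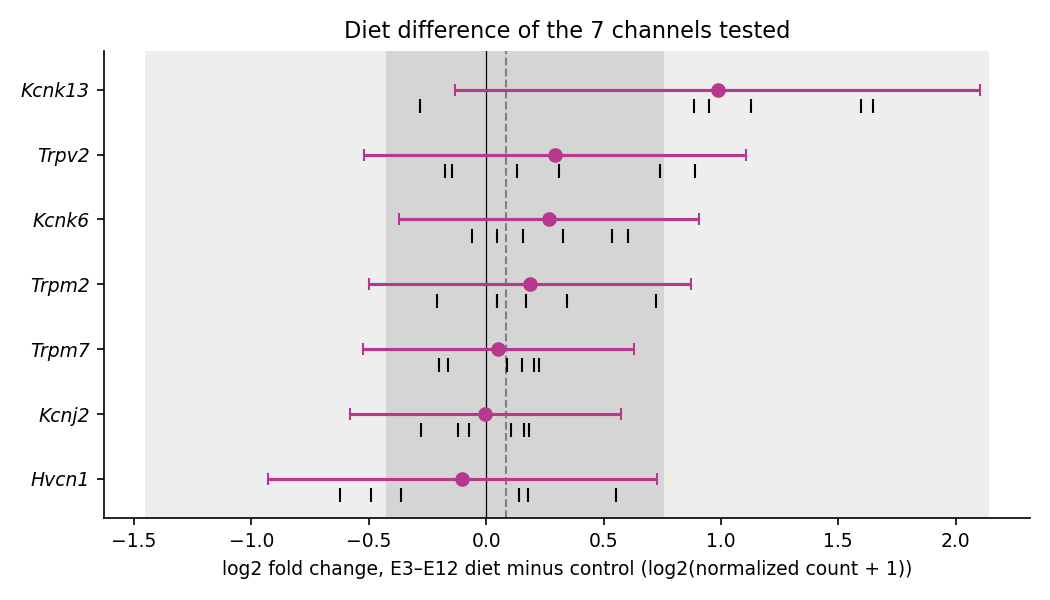
Log2 fold change of the 7 channels tested (points, with limma standard errors as bars) and the values with each of the 6 libraries left out in turn (black ticks). The dark and light bands hold the middle 50% and 90% of all 18007 genes and the dashed line is their median. Every bar crosses 0, and the tick of Kcnk13 at -0.28 is the value without control replicate 2.

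Kcnk13 encodes THIK-1, the two-pore potassium channel that carries the background potassium current of microglia and supports their surveillance. It spans chr12:99964499-100062682 (GRCm38, plus strand) and none of its exons overlap another gene. Kcnk13 had 228, 15.9 and 245 normalized counts in controls (replicates 1 to 3, as for every gene below), against 160, 205 and 224 under the diet. Control replicate 2 lay far below the other libraries, at a value worth about 8.08 reads, while the other 5 lay close together with a mean of 212 ± 32.9 (SD). The log2 fold change was 0.99 (standard error 1.12, limma adjusted p = 0.999, exact permutation p = 1). With control replicate 2 left out the log2 fold change was -0.28, and the 3 E3–E12 diet libraries had a mean 0.829 times that of the other controls. The summed microglia markers were highest in that same control library. Vmp1, Rtraf and Fam8a1 had the patterns most like that of Kcnk13, with an SD of the log2 ratio to it of 0.22, 0.24 and 0.25 over 6 libraries. These were the smallest SDs of the 10425 genes compared, which had a median of 1.73. The likeness rests mainly on the low value in control replicate 2, which dominates the pattern of Kcnk13.

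Kcnk6 encodes TWIK-2, another two-pore potassium channel, known in macrophages for the potassium efflux that triggers the NLRP3 inflammasome. It lies at chr7:29221926-29232515 (minus strand). Kcnk6 had 913, 1567 and 2091 normalized counts in controls, against 1093, 2026 and 2364 under the diet. The libraries numbered 1 were the lowest of both groups, and the groups overlapped almost fully. Between diets the log2 fold change was 0.27 (standard error 0.64, 95% interval -1.26 to 1.79, limma adjusted p = 0.999), and -0.060 without control replicate 1. Ammecr1l, Erp29 and Cuta followed Kcnk6 most closely, with SDs of the log2 ratio of 0.089, 0.091 and 0.12.

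Kcnj2 encodes Kir2.1, the inward rectifier of microglia and many other cells, which holds the membrane near the potassium potential. It lies at chr11:111066164-111076821 (plus strand). It had 522, 963 and 891 normalized counts in controls, against 588, 842 and 898 under the diet. Both groups ran over the same range, and Kcnj2 was the steadiest member, with an SD of 0.37 in its log2 level over the 6 libraries, which only 4.66% of the genes tested undercut. The log2 fold change was -0.0031 (standard error 0.58, 95% interval -1.38 to 1.37, limma adjusted p = 0.999), the smallest in size among the 7, and between -0.28 and 0.18 with 1 library left out. The interval still allows changes of over 2-fold in either direction. Tbc1d25, Plxna4 and Shisa5 were most like it (SDs of the log2 ratio 0.072, 0.081 and 0.082).

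Kcna3 encodes Kv1.3, the voltage-gated channel of activated microglia and of T cells, in a single exon at chr3:107036169-107038070 (plus strand). It had 15.5, 0 and 7.55 normalized counts in controls, against 3.39, 4.49 and 15.1 under the diet. The value of E3–E12 diet replicate 1 is worth about 3.03 reads and that of E3–E12 diet replicate 3 about 16.0. A count of 0 in control replicate 2 allows up to 5.90 normalized counts (3 reads). With a mean of 7.67 normalized counts Kcna3 did not pass the filter, and no difference was detectable at this depth. Kcnn4, which encodes the calcium-activated channel KCa3.1, lies at chr7:24370263-24386690 (plus strand) and had 8.57 normalized counts, about 15.7 reads, in control replicate 3 and 0 in the other 5 libraries. The limits of 3 reads in those libraries are between 2.33 and 5.90 normalized counts, so Kcnn4 could be present at a low level in any of them.

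Hvcn1 encodes Hv1, the voltage-gated proton channel that compensates the charge moved by the NADPH oxidase of phagocytes. It lies at chr5:122206804-122242297 (plus strand), and 1574 of its 3563 exon bases overlap those of Tctn1 on the opposite strand. No strand setting is stated for the counting, so reads of these genes may not be told apart, and the Hvcn1 values are uncertain to that extent. Hvcn1 had 520, 1499 and 1576 normalized counts in controls, against 403, 1438 and 1715 under the diet. In each group replicate 1 was the lowest and the other libraries were close together. Tctn1 had 753, 267 and 543 in controls, against 676, 783 and 773 under the diet. Replicate 1 was thus its highest control and its lowest E3–E12 diet library. The log2 fold change of Hvcn1 was -0.10 (standard error 0.83, 95% interval -2.08 to 1.88, limma adjusted p = 0.999). It was 0.55 without E3–E12 diet replicate 1 and -0.62 without control replicate 1. Gng2 and Nfam1 were among the genes that followed Hvcn1 most closely (SDs of the log2 ratio 0.11 and 0.16).

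Trpv2 encodes a calcium-permeable channel that macrophages use in phagocytosis, at chr11:62574486-62600515 (plus strand). It had 244, 870 and 480 normalized counts in controls, against 249.5, 714 and 1049 under the diet. The lowest value of both groups was again that of replicate 1, and the spread within a group was wider than the distance between the group means of 531 ± 316 and 671 ± 402 (SD, n = 3). The log2 fold change was 0.29 (standard error 0.81, 95% interval -1.65 to 2.24, limma adjusted p = 0.999), with values of 0.89 without E3–E12 diet replicate 1 but -0.15 without E3–E12 diet replicate 3 and -0.18 without control replicate 1. Adgrg1, Mknk1 and Gabarapl2 were most like it (SDs of the log2 ratio 0.14, 0.15 and 0.22).

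Trpm2 encodes a cation channel opened by ADP-ribose and oxidative stress, at chr10:77907722-77970563 (minus strand). It had 632, 534 and 807 normalized counts in controls, against 351, 896 and 1279 under the diet. The E3–E12 diet group held both the lowest and the highest value, and its SD was 467 against 138 in controls. Its log2 fold change was 0.19 (standard error 0.68, limma adjusted p = 0.999), with 0.72 without E3–E12 diet replicate 1 and -0.21 without E3–E12 diet replicate 3. Trpm7, at chr2:126791565-126876230 (minus strand), encodes a magnesium, zinc and calcium channel fused to a protein kinase. It had 2498, 2318 and 1419 normalized counts in controls, against 1643, 1982 and 2812 under the diet. It had the highest normalized count of the members, though not per kb, and its groups covered nearly the same range. Its log2 fold change was 0.052 (standard error 0.58, 95% interval -1.33 to 1.43, limma adjusted p = 0.999), and it was -0.16 when E3–E12 diet replicate 3 and -0.20 when control replicate 3 was left out. The patterns most like that of Trpm2 were those of Grina, Noc2l and Arid3a, with SDs of 0.15, 0.15 and 0.16, and those most like Trpm7 were Tulp4, Lin54 and Dhx37, with SDs of 0.18 each.

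The channels differed in how they followed the microglia markers of a library. For each library the mean log2 level of the 12 microglia markers was subtracted from the log2 level of a channel, and the SD of this log2 ratio over the 6 libraries was compared with the SD of the channel itself. The marker mean had an SD of 0.94 on the log2 scale. Hvcn1 had an SD of 0.92 by itself and of 0.29 as a ratio to the markers, smaller than in all but 0.411% of the 18007 genes. Trpv2 went from 0.91 to 0.36, smaller than in all but 0.922%. Both channels and the markers were lowest in the libraries numbered 1. Above those, neither channel kept the order of the markers. Hvcn1 and Trpv2 were lower in control replicate 2 than in E3–E12 diet replicate 3, whereas the marker mean was higher. A ratio SD below the SD of the gene itself, by any amount, occurred in 17.0% of all genes tested. Kcnk6 had SDs of 0.55 and 0.59, and 5.96% of genes had a smaller ratio SD. Kcnj2, Trpm2 and Trpm7 varied more as a ratio (0.59, 0.79 and 0.95) than alone (0.37, 0.65 and 0.38), and Kcnk13 most of the tested members (2.11 against 1.5). Kcnj2 still deviated to the same side as the marker mean in every library, over a range of 0.88 against 2.25. Its ratio SD was undercut by 6.14% of genes. A larger SD as a ratio therefore does not show that a channel failed to move with the markers. Trpm7, which most cells express, was higher in control replicate 1 than in control replicate 3 although the mean log2 level of the markers was 11.8 in the first and 13.3 in the other. These are descriptions over 6 libraries that share their scaling and mix both diets.

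**Figure D3:**
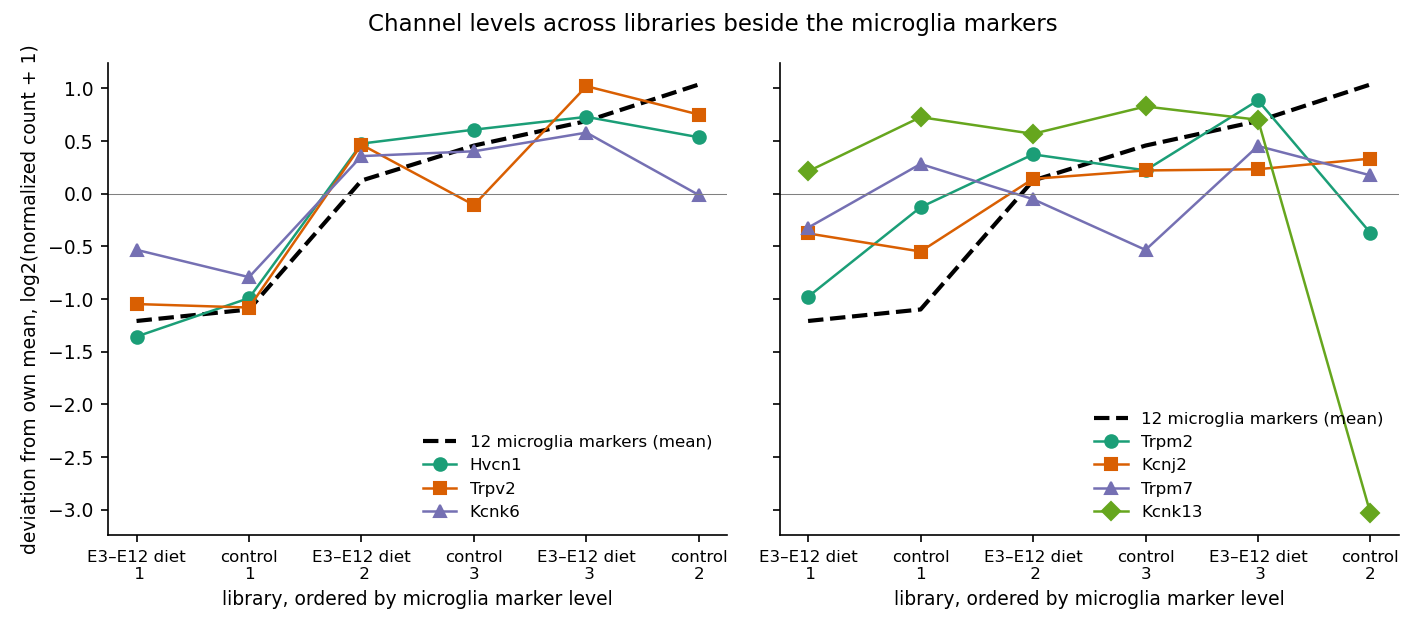
Deviation of each channel from its own mean over the 6 libraries on the log2(normalized count + 1) scale, with the libraries ordered by the mean level of 12 microglia markers (dashed line). Hvcn1 and Trpv2 are lowest in the libraries numbered 1, as is the dashed line, but do not keep its order above them (left). Trpm7 and Kcnj2 stay between -0.55 and 0.45 of their means, with Kcnj2 on the same side as the dashed line in every library (right). Kcnk13 lies at -3.04 in control replicate 2 (right).

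Relative to the microglia markers, the log2 ratio of Trpv2 was -3.83, -4.14 and -4.42 in control replicates 1, 2 and 3, against -3.69, -3.51 and -3.52 under the diet. All E3–E12 diet libraries thus lay above all controls, by 0.55 in the mean (-3.57 ± 0.101 against -4.13 ± 0.292, SD, n = 3). An exact permutation test, two-sided, gave p = 0.1, the smallest that 3 libraries against 3 allow, and 0.7 after Benjamini-Hochberg adjustment over the 7 channels. Ratios of the groups did not overlap in 1.76% of all genes tested. On this scale the median log2 fold change of all genes was 0.35, and limma gave Trpv2 no adjusted call. Hvcn1 had ratios of -2.93 ± 0.365 in controls against -2.77 ± 0.252 under the diet (exact permutation p = 0.7, adjusted 0.8), which overlapped, as did those of Kcnk6, Kcnk13, Kcnj2, Trpm2 and Trpm7 (exact permutation p between 0.5 and 0.8, adjusted 0.8).

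The other ion transport genes were taken from a list of 102 potassium channel subunits, TRP and mechanosensitive channels, store-operated calcium entry genes, chloride channels, exchangers and pumps. Of these, 87 passed the filter. In limma 0 of the 87 passed the adjusted threshold and 0 had an unadjusted p under 0.05, and 58 had a positive and 29 a negative log2 fold change, with a median log2 fold change of 0.21. Groups did not overlap in 1 of them, or fewer than the 5.9% of all genes. That gene, named after its values were seen, is Slc4a2, an anion exchanger, with 666, 467 and 755 normalized counts in controls, against 465, 287 and 423 under the diet (log2 fold change -0.68, standard error 0.56, limma adjusted p = 0.999, exact permutation p = 0.1). The value of control replicate 2 was only just above that of E3–E12 diet replicate 1.
Class medians ranged from -0.26 to 0.55, and differences between classes were not tested. Other two-pore potassium channels (7 of 10 tested) had a median log2 fold change of 0.36, with 6 higher and 1 lower, and other potassium channel subunits (23 of 25) one of 0.38, with 16 higher and 7 lower. Other TRP and mechanosensitive channels (12 of 21) had a median of 0.55, with 9 higher and 3 lower. Store-operated entry genes (5 of 5) had a median of -0.26, with 1 higher and 4 lower, chloride channels (17 of 17) one of 0.12, with 13 higher and 4 lower, and exchangers and pumps (23 of 24) one of 0.058, with 13 higher and 10 lower. None of these genes passed a threshold.
The gene with the highest mean level per kb over the 6 libraries in each class was Kcnk1 (38.6 normalized counts per kb), the voltage-gated potassium channel gene Kcnd1 (558), the mechanosensitive channel gene Tmem63a (567), the calcium channel gene Orai1 (516), Ttyh3 (535) and the sodium pump subunit gene Atp1b2 (778). Kcnd1 had 1401, 6224 and 1932 normalized counts in controls, against 947, 2099.5 and 5082 under the diet, and was again lowest in the libraries numbered 1. Its mean per kb was above that of every member, but Kcnk6 was higher per kb in control replicate 3 and E3–E12 diet replicates 1 and 2. Kcnk1 was listed at 0 in control replicate 2 and at 1.89 normalized counts in E3–E12 diet replicate 3, and was not the highest of its class in every library. Tmem63a had 1327, 3134 and 3469 in controls, against 1359, 2840 and 3163 under the diet, and was also lowest in the libraries numbered 1. Orai1, the pore of store-operated calcium entry, had 659, 2236 and 1357 in controls, against 504, 853 and 1492 under the diet. Atp1b2, which astrocytes also express, had 2888, 1365 and 2426 in controls, against 6302, 2705 and 3379 under the diet, without the low values in the libraries numbered 1. The log2 fold changes of these 6 genes lay between -0.55 and 0.86, each with a limma adjusted p of 0.999, and their groups overlapped.

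**Figure D4:**
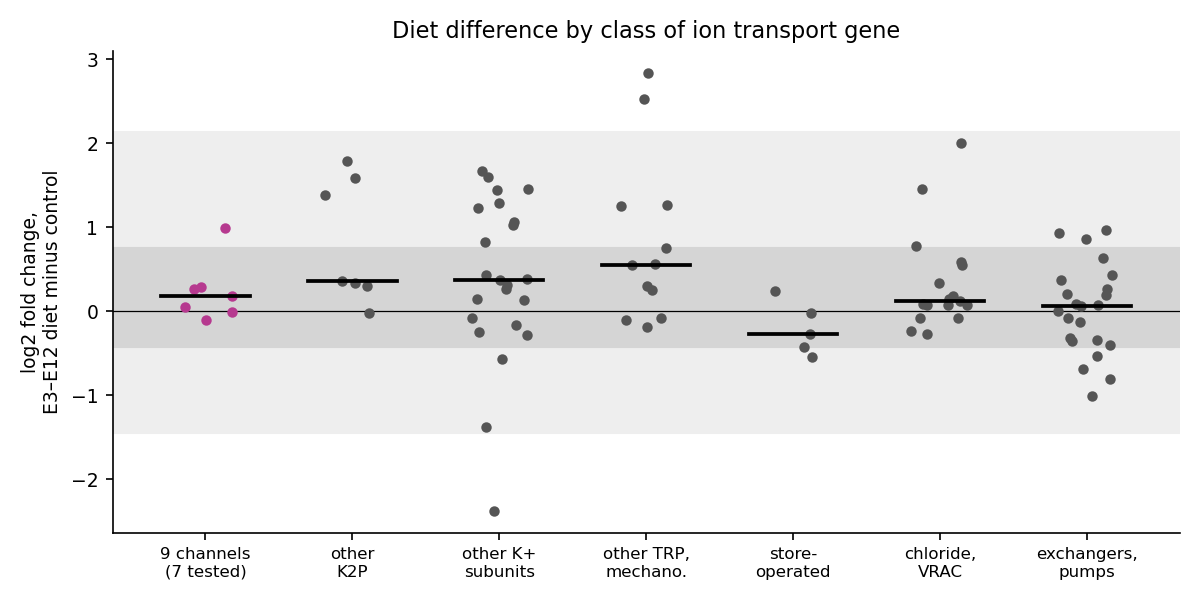
Log2 fold change (E3–E12 diet minus control) of the 7 channels tested (magenta) and of the other ion transport genes by class (grey), with the class median as a bar. The bands hold the middle 50% and 90% of all 18007 genes tested. The members lie between -0.10 and 0.99, and the medians of all classes fall inside the dark band.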

How the data were processed

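RNA-seq was analysed from 6 mouse microglia libraries, 3 per maternal diet. The authors deposited 1 table of normalized counts per gene, a scaled expression signal, for 26789 genes, of which 26507 matched a symbol. The submitters' processing notes name FastQC, STAR, featureCounts, DESeq2 and GRCm38, and the study's methods name DESeq2. The annotation and strand setting are not given in the sources used here. The scaling factors are not in the table, and whole reads could not be recovered, since between 71.0% and 84.2% of the values under 4 lay within 0.1 of a whole multiple of the step of their library.

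Genes averaging 10 or more normalized counts were compared on log2(normalized count + 1) with limma 3.58.1 (R 4.3.3), two-sided, without a mean-variance trend, with Benjamini-Hochberg adjustment and the study's threshold of 0.1. The steps were tested on simulated data that varied less between libraries than these, so that test does not show what could be detected here. Exact permutation tests used the 20 splits of 6 libraries. Exon lengths and overlaps came from GENCODE M21 (GRCm38) and promoters from RefSeq (GRCm38.p6). The name of the table mentions surrogate variable analysis, and whether such variables were removed from the values is not given in the sources used here. SDs and p-values therefore measure the spread between libraries as deposited, which may be less than that between litters.

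All members are named. Of the wider list, genes with an unadjusted p under 0.05 and the highest per kb in each class are named, and for each tested member the 3 genes (averaging 100 or more) of steadiest log2 ratio, except 1 that is not reported here. The members and lists were chosen with earlier results of these data known. Alternatives covered the pseudocount, the filter, 3 other scalings, the replicate block, library weights, leaving out libraries and a mean-variance trend.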

Additional observations from a re-analysis of the deposited data

How the results depend on the processing

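No channel or gene of the wider ion transport list that was tested passed the adjusted threshold under any of the 15 alternatives, which tested 7 channels each, or 9 without the filter, and 86 to 100 genes of the wider list. Over all genes 0 passed, except with library weights (arrayWeights), which gave 5, none of them in either list. Leaving out both libraries numbered 1, and a mean-variance trend, were chosen after seeing the data. The median log2 fold change of the channels was 0.31 with equal totals, 0.45 when centred on the microglia markers and 0.15 without control replicate 2, and lay between -0.15 and 0.60 with 1 library left out; each move was smaller than the spread between replicates. The median of all genes moved from 0.087 to 0.20 with equal totals and to 0.35 when centred on the microglia markers, so 7 of 7 channels were higher under both.
Signs of small differences turned. Kcnj2 was at 0.12 with equal totals, 0.097 with quantile normalization and 0.26 when centred on the microglia markers, and between -0.28 and 0.18 with 1 library left out. Hvcn1 was at 0.019 with equal totals, 0.16 when centred and 0.031 without both libraries numbered 1, and between -0.62 and 0.55 with 1 library left out. Kcnk13 was at -0.13 with library weights and between -0.28 and 1.65 with 1 library left out. With 1 library left out Kcnk6 ranged between -0.060 and 0.60, Trpv2 between -0.18 and 0.89, Trpm2 between -0.21 and 0.72, and Trpm7 between -0.20 and 0.23. The cause was not tested.
Libraries carry the numbers 1 to 3 in both groups. Deviations from the group means correlated by 0.26, 0.035 and 0.14 in same-numbered libraries, so the numbers were not taken as pairs. With the replicate block 0 channels and 0 genes passed, 468 genes against 327 had an unadjusted p under 0.05, and every library correlated best with its own number except control replicate 2, whose best was E3–E12 diet replicate 3. Low counts limit what can be said of Kcna3 and Kcnn4 most.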
